A study of Homo sapiens with 6 samples.

Results

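The genes described here are the 10 core genes of interleukin-6 signaling in the expression table of Hep G2 cells: the cytokine IL6, the receptor subunits IL6R, IL6ST and OSMR, the kinases JAK1, JAK2 and TYK2, the transcription factor STAT3, and its feedback and survival targets SOCS3 and PIM1. They were chosen by name, with earlier results of these data known, as 10 of the 23524 genes of the table. All 10 passed the filter on low values, IL6 only through its EFTUD2 values. Hep G2 is a line derived from a human liver tumor. RNA-Seq libraries were made from Hep G2 cells carrying an empty vector (control, n = 3) and from Hep G2 cells with stable overexpression of EFTUD2, a GTPase of the U5 particle of the spliceosome (EFTUD2, n = 3). The study describes both vectors as lentiviral and selects its stable cells with puromycin, so the controls differ from unmodified Hep G2 cells too. The comparison asks whether genes of this pathway differed in mRNA level when EFTUD2 was raised. The study states 3 independent experiments for its data in general and N = 3 for the RNA-Seq comparison. The sources used here do not say of the libraries themselves whether those of a group came from separate cultures or from 1 clone. The p-values therefore measure the spread between these libraries, which may be technical.

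IL-6 binds the receptor subunit IL-6R, and the pair recruits gp130, the signaling chain encoded by IL6ST, which many related cytokines share. The kinases bound to gp130 then phosphorylate STAT3, which enters the nucleus and switches on target genes. SOCS3 is one of those targets and acts as a brake, because it binds gp130 and inhibits the attached kinases. In the liver this route is best known for the acute-phase response, in which hepatocytes secrete proteins such as haptoglobin and the serum amyloids. RNA-Seq measures transcript level and not the phosphorylation of STAT3.

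The sequences just upstream of these genes show which known motif letters stand near their starts. The 250 bases before each annotated start were read from RefSeq (GRCh38.p14, the same assembly as the hg38 build of the labels), which gave 16 windows for the 10 genes, and were searched on both strands. TTCNNNGAA, the usual STAT motif, stood in none of the 16 windows and in 6.57% of all 35116 windows of the same length. The shorter form TTCNNGAA stood in 4 of the 16 windows, those of IL6R, STAT3, 1 start of SOCS3 and 1 start of JAK1, and in 6.62% of all windows. The NF-kB motif GGANTTTCC was found upstream of IL6 alone (1.45% of all windows), the C/EBP motif TTGCNNAA upstream of IL6 and OSMR (9.05% of all windows), and the AP-1 motif TGANTCA upstream of none (6.57% of all windows). None of these motifs overlapped another in a printed stretch. The stretches below are shown for the genes whose library groups did not overlap and whose windows held a match, written 5′ to 3′ on the gene's own strand, with the matched letters in capitals. The IL6 stretches lie at chr7:22727117-22727146 and chr7:22727034-22727063, that of IL6R at chr1:154405093-154405122 and that of OSMR at chr5:38845928-38845957, all on the plus strand. The STAT3 stretch lies at chr17:42388555-42388584 and that of SOCS3, which is the whole 250-base window of 1 start, at chr17:78360926-78361175, both on the minus strand. The window of the other SOCS3 start, inside the gene at chr17:78359668-78359917, held no match.
IL6 NF-kB: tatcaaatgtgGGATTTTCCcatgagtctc
IL6 C/EBP: aggacgtcacaTTGCACAAtcttaataagg
IL6R STAT-like: cgTTCACGAAaccaaaaatcaaaactaggc
OSMR C/EBP: aagacgggaaaTTGCAAAAgacctcacccc
STAT3 STAT-like: cgagctggcctTTCATGAAttatgcatgac
SOCS3 STAT-like: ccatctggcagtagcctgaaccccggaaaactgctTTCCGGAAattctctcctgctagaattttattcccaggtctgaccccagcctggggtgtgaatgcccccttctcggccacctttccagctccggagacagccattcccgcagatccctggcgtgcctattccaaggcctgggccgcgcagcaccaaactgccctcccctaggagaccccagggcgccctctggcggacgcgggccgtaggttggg
In the printed SOCS3 window the match lay 215 to 208 bases before that start, and in the STAT3 window it lay 131 to 124 bases before the start. A match is a description of letters and does not show that a factor was bound.

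EFTUD2 mRNA was 2.25 times as high in the EFTUD2 libraries (106.3 ± 3.30 FPKM, mean ± SD, n = 3) as in the controls (47.3 ± 6.65 FPKM), with no overlap. All 14 hepatocyte markers examined, led by the apolipoprotein APOA2 (2883 to 3559 FPKM over the 6 libraries) and SERPINA1, had a control mean of at least 1 FPKM. EFTUD2 replicate 3 stood apart: the SD over genes of the log2 differences was 0.51 and 0.60 between it and the other EFTUD2 libraries, 0.23 between those 2, and 0.21 to 0.36 among the controls. The difference without this library is therefore given for each of the 10 genes. Depth is unknown, because the table holds FPKM (fragments scaled to transcript length and to library size) and no counts.

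IL6, OSMR, STAT3 and SOCS3 were higher in every EFTUD2 library than in every control, IL6R and TYK2 were lower in every EFTUD2 library, and IL6ST, JAK1, JAK2 and PIM1 overlapped. At an adjusted p under 0.05 (limma on log2(FPKM + 1), Benjamini-Hochberg adjustment over 17222 genes) 0 of the 10 genes were called, as were 0 genes of the whole table (0.0%). At an unadjusted p under 0.05, 4 of the 10 were higher (IL6, OSMR, STAT3 and SOCS3), against 4.4% of all genes, and 1 was lower (IL6R), against 7.9%. Groups without overlap were found for 4 higher genes, against 7.92% of all genes, and for 2 lower genes, against 19.4%. IL6, which passed the filter only through its EFTUD2 values, is in both counts of 4 higher genes. The 10 genes were chosen with earlier results of these data known, so these counts are descriptions. With median of ratios scaling the unadjusted counts were 4 higher and 0 lower, and 6 higher and 1 lower genes did not overlap. With quantile normalization the counts were the same except that 0 lower genes did not overlap. Over all genes, 1970 of 17210 and 2143 of 17222 were under 0.05 unadjusted (limma) with these scalings, in both directions together. The shares by direction and without overlap are not given for them, so these counts cannot be read against the shares above. The median log2 fold change was 0.19 over the 10 genes and -0.07 over all genes tested. Without EFTUD2 replicate 3, IL6 and SOCS3 were called, both higher, against 0.891% of 17163 genes called higher and 0.0816% called lower. An exact two-sided permutation test of 3 against 3 libraries cannot give a p below 0.1, and it gave 0.1 for each of the 6 genes without overlap.

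**Figure D1:**
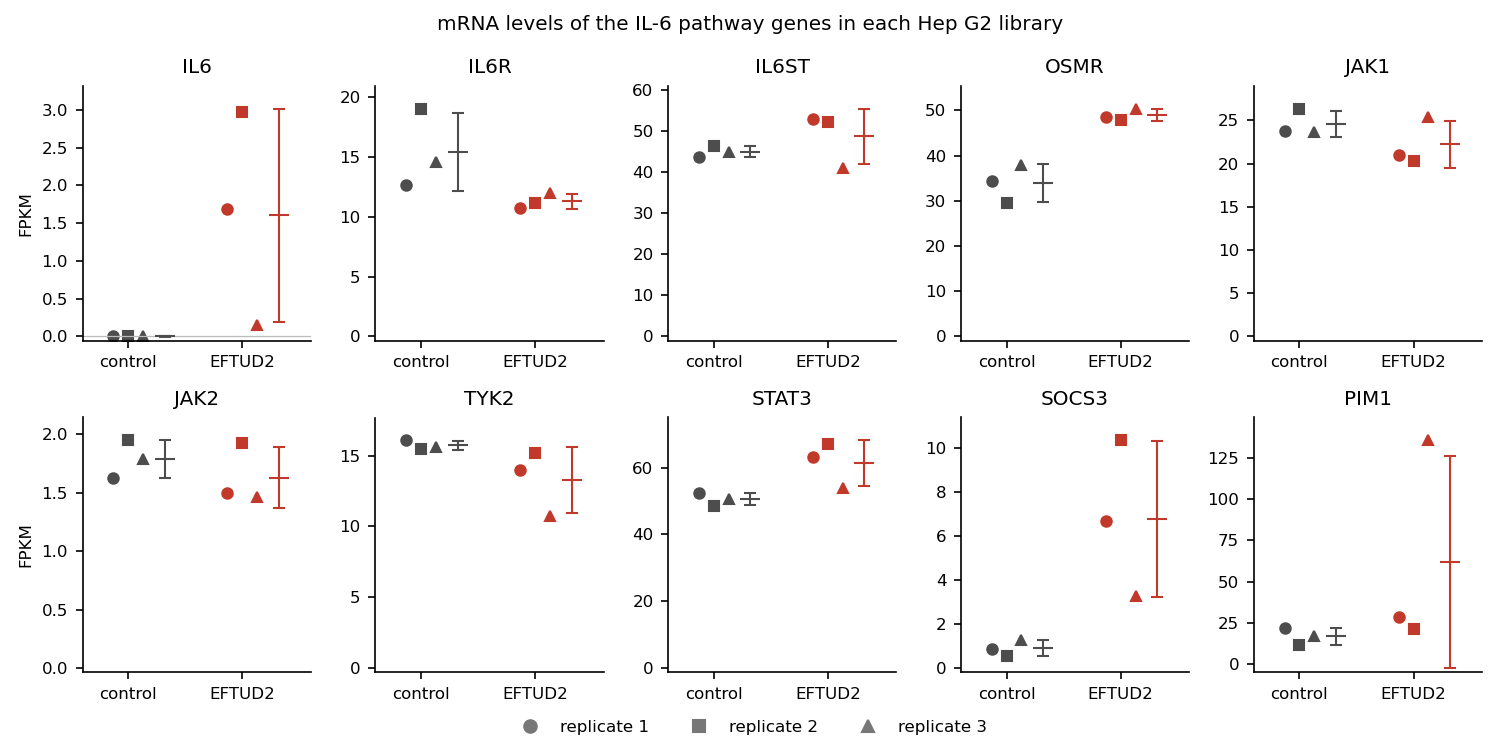
FPKM (vertical axes, linear, 1 panel per gene) in each control and EFTUD2 library, with the replicate number shown by the symbol and the mean and SD of each group as a bar. EFTUD2 replicate 3 is the lowest EFTUD2 library for IL6, IL6ST, JAK2, TYK2, STAT3 and SOCS3 and the highest for IL6R, OSMR, JAK1 and PIM1, and the SD of PIM1 exceeds its mean so that its bar reaches below 0.

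IL6, the ligand (chr7:22727200-22731998), was close to absent in the controls, at 0.01, 0 and 0 FPKM, and measured 1.69, 2.97 and 0.15 FPKM in EFTUD2 replicates 1, 2 and 3. All 3 EFTUD2 libraries lay above all controls, but replicate 3 held 0.0505 times the level of replicate 2. No fold between the raw levels is given, because the controls are listed at or near 0. On the log2(FPKM + 1) scale the difference was 1.20 (SE 0.41, 95% interval 0.22 to 2.18, unadjusted p = 0.0233, limma adjusted p = 0.40). It was 1.70 without EFTUD2 replicate 3 (limma adjusted p = 0.0255) and 3.43 with a pseudocount of 0.1, and the adjusted p ranged from 0.0072 to 0.68 over the alternatives. The unadjusted p was 0.0552 to 0.0657 when a control or EFTUD2 replicate 1 was left out. IL6 shares exon sequence on the opposite strand with STEAP1B, which was at most 0.02 FPKM in every library. Whether the counting used strand is not given in the sources used here.

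The IL6 values moved with some transcripts that serve as markers of other cell types. Among them, vimentin is also the study's mesenchymal marker, with more of the protein reported in EFTUD2-overexpressing Hep G2 cells. The summed level of 12 fibroblast markers was 0.62 to 1.73 FPKM in the controls and 27.2, 67.7 and 5.33 FPKM in EFTUD2 replicates 1 to 3. Of these 12, led by PDGFRB in the controls and VIM in the EFTUD2 group, 6 passed the filter, VIM, COL3A1, COL5A1 and LUM only through their EFTUD2 values. Vimentin (VIM) supplied most of that sum, at 0.06, 0.08 and 0.12 FPKM in the controls and 23.22, 59.59 and 2.87 FPKM in the EFTUD2 libraries, while COL1A2 was 0 in all 6 libraries and THY1 at most 0.01 FPKM. The summed level of 10 basal and squamous epithelial markers was 38.9 to 57.3 FPKM in the controls and 137.7, 261.3 and 40.6 FPKM in the EFTUD2 libraries. SFN was the highest of them in the controls and KRT17 in the EFTUD2 group, where it measured 66.92, 135.12 and 9.29 FPKM. Of the 10, 6 passed the filter, of which 5 had a positive and 1 a negative log2 fold change. KRT7 measured 0.61, 0.95 and 1.34 FPKM in the controls and 24.68, 61.23 and 0.78 FPKM in the EFTUD2 libraries. KRT14 and KRT16, which passed only through their EFTUD2 values, had the same order of EFTUD2 libraries and reached 0.83 and 0.90 FPKM. S100A2 of the same list was lower, at 3.57, 4.41 and 3.71 FPKM in the controls and 1.29, 1.08 and 0.54 FPKM in the EFTUD2 libraries, and KRT5 was 0 throughout. Macrophage markers (6 of 12 passed) were dominated by LYZ, and their sum was 778 to 2282 FPKM in the controls and 887 to 1751 FPKM in the EFTUD2 group, with TYROBP at 0 and PTPRC at most 0.02 FPKM. Without overlap, 1 of these 6 was higher and 0 lower, against 7.92% and 19.4% of all genes. It was CD14, at 0.86, 0.6 and 1.03 FPKM in the controls and 1.41, 2.06 and 2.51 FPKM in the EFTUD2 libraries. Endothelial markers, led by ESAM (6 of 10 passed), summed to 16.93 to 19.98 FPKM in the controls and 5.90 to 11.39 FPKM in the EFTUD2 group. ESAM supplied most of that sum, with means of 15.34 and 5.97 FPKM. Without overlap, 2 of the 6 were higher (CDH5 and VWF) and 2 lower (ESAM and PECAM1), against 7.92% and 19.4% of all genes. CDH5 passed the filter only through its EFTUD2 values. T and B cell markers, led by CD3D (3 of 6 in the table passed), summed to 3.27 to 5.09 FPKM in the controls and 2.91 to 4.69 FPKM in the EFTUD2 group, with CD3E and CD2 at 0. The part of these markers in the IL6 result was not tested. More or fewer cells of a type and more or less RNA per cell cannot be told apart in such libraries.

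IL6R, which binds the cytokine (chr1:154405343-154469450), measured 12.63, 19.02 and 14.57 FPKM in the controls and 10.74, 11.12 and 11.98 FPKM in the EFTUD2 libraries. The controls spread more widely than the EFTUD2 libraries (15.4 ± 3.28 against 11.3 ± 0.635 FPKM, mean ± SD, n = 3 each), and the lowest control lay just above the highest EFTUD2 library. The difference was -0.40 on the log2(FPKM + 1) scale (SE 0.16, 95% interval -0.78 to -0.02, unadjusted p = 0.0421, limma adjusted p = 0.40). Without control replicate 2, the highest library, it was -0.25 (unadjusted p = 0.132), and without EFTUD2 replicate 3 it was -0.44. With median of ratios scaling it was -0.29 (unadjusted p = 0.149).

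IL6ST, which encodes gp130 (chr5:55935095-55994963), measured 43.75, 46.40 and 45.05 FPKM in the controls and 53.15, 52.19 and 41.02 FPKM in the EFTUD2 libraries. Replicates 1 and 2 were above the controls and replicate 3 was below them. The difference over all libraries was 0.10 (SE 0.13, 95% interval -0.20 to 0.40, limma adjusted p = 0.69), and it was 0.22 without EFTUD2 replicate 3 (unadjusted p = 0.0257, limma adjusted p = 0.22).

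OSMR, the receptor subunit that pairs with gp130 for oncostatin M (chr5:38846012-38945579), had the least spread within the EFTUD2 group among the genes that were higher. Its levels were 34.47, 29.54 and 37.99 FPKM in the controls and 48.53, 47.94 and 50.36 FPKM in the EFTUD2 libraries, a ratio of means of 1.44. The difference was 0.52 (SE 0.12, 95% interval 0.24 to 0.80, unadjusted p = 0.00327, limma adjusted p = 0.36), and it stayed between 0.43 and 0.60 when any 1 library was left out, being 0.50 without EFTUD2 replicate 3. EFTUD2 replicate 3 was the highest library here, in contrast to its place for IL6, STAT3 and SOCS3. OSMR overlaps RICTOR on the opposite strand, which measured 6.43 to 9.34 FPKM.

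Set against gp130 within each library, OSMR took a larger and IL6R a smaller level. The ratio of OSMR to IL6ST, a ratio of 2 FPKM levels, was 0.788, 0.637 and 0.843 in the controls and 0.913, 0.919 and 1.23 in the EFTUD2 libraries, with no overlap. The ratio of IL6R to IL6ST was 0.289, 0.410 and 0.323 in the controls and 0.202, 0.213 and 0.292 in the EFTUD2 libraries, and these ranges overlapped through replicate 3. In all, 7 such ratios were computed, of which those of LIFR to IL6ST, JAK2 to JAK1 and TYK2 to JAK1 overlapped between the groups, and that of IL11 to IL6 is undefined in the controls with IL6 at 0.

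**Figure D2:**
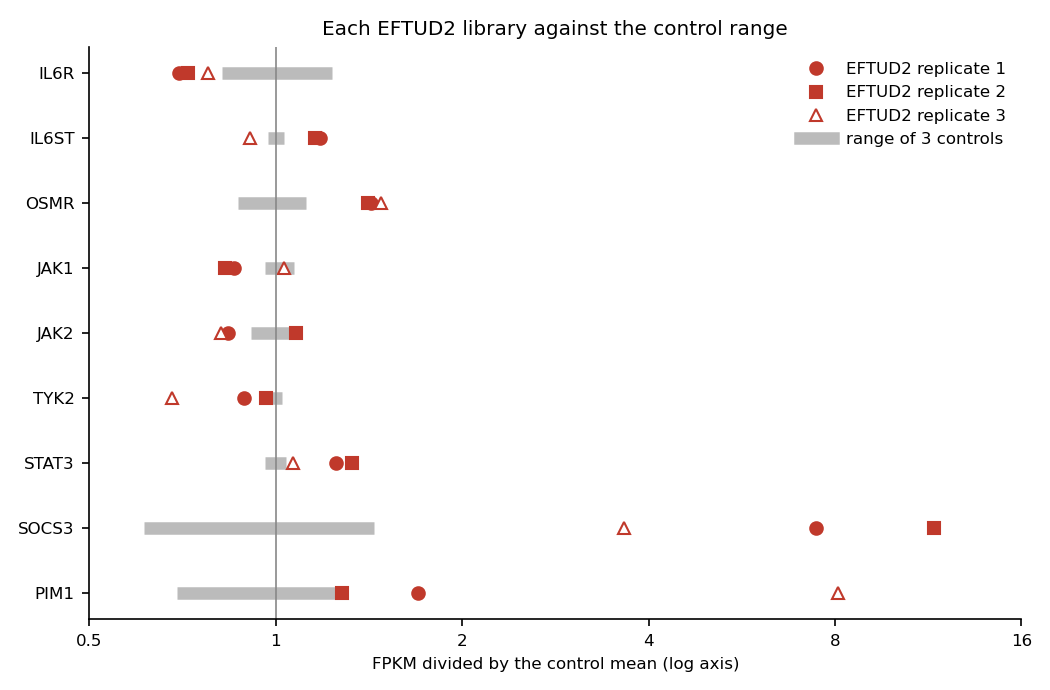
FPKM of each EFTUD2 library divided by the control mean (horizontal log axis) for 9 of the 10 genes, with the range of the 3 controls as a gray band; IL6 is left out because its controls are at or near 0. The 3 points for OSMR lie together at about 1.44 times the control mean, while replicate 3 is apart from the others for PIM1, at 8.08 times.

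None of the 3 kinases was higher in the EFTUD2 group. JAK1 (chr1:64833229-65067746), the kinase on which gp130 signaling chiefly depends, measured 23.76, 26.35 and 23.66 FPKM in the controls and 21.03, 20.36 and 25.38 FPKM in the EFTUD2 libraries. Replicates 1 and 2 lay below the controls and replicate 3 lay within their range. The difference was -0.14 (SE 0.12, 95% interval -0.43 to 0.14, unadjusted p = 0.277, limma adjusted p = 0.57). It was -0.24 without EFTUD2 replicate 3 (unadjusted p = 0.0336, limma adjusted p = 0.25) and -0.03 with median of ratios scaling. JAK1 shares exon sequence on the opposite strand with RAVER2, which was at 5.46 to 7.58 FPKM.

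JAK2 (chr9:4984390-5129948), a kinase shared with the receptors of growth hormone and erythropoietin, was the least abundant of the kinases. It measured 1.63, 1.95 and 1.79 FPKM in the controls and 1.5, 1.93 and 1.46 FPKM in the EFTUD2 libraries. The groups overlapped, with a difference of -0.09 (SE 0.13, 95% interval -0.39 to 0.22, limma adjusted p = 0.74), which was -0.04 without EFTUD2 replicate 3.

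TYK2 (chr19:10350533-10380572), a kinase best known from interferon receptors, measured 16.09, 15.48 and 15.62 FPKM in the controls and 13.99, 15.16 and 10.71 FPKM in the EFTUD2 libraries. The controls lay close together, and all EFTUD2 libraries lay below them, replicate 2 only slightly and replicate 3 the most. The difference was -0.24 (SE 0.14, 95% interval -0.58 to 0.10, unadjusted p = 0.138, limma adjusted p = 0.46), and it was -0.10 without EFTUD2 replicate 3 and -0.13 with median of ratios scaling.

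STAT3 (chr17:42313324-42388442) was the most abundant of the 10 genes in the controls, at 52.40, 48.62 and 50.54 FPKM, and measured 63.21, 67.05 and 53.83 FPKM in the EFTUD2 libraries. EFTUD2 replicate 3 was above the highest control by little more than 1 FPKM. The ratio of means was 1.21 and the difference 0.27 (SE 0.11, 95% interval 0.0002 to 0.54, unadjusted p = 0.0499, limma adjusted p = 0.40). Without EFTUD2 replicate 3 it was 0.36 (limma adjusted p = 0.11, range over the alternatives 0.0207 to 0.68). The unadjusted p (limma) lay at its threshold and moved to both sides of it. It was 0.0541 with a pseudocount of 0.1, 0.0567 with the minimum of 1 FPKM and 0.0864 with a replicate block. When any library other than EFTUD2 replicate 3 was left out, it was 0.0693 to 0.167. It was 0.00353 with median of ratios scaling (difference 0.39), 0.0102 with quantile normalization and 0.0362 with no filter. With array weights it was 0.000538, and without EFTUD2 replicate 3 it was 0.00393.

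SOCS3 (chr17:78356778-78360925), the feedback inhibitor of which 1 upstream window is printed above, was the gene of this pathway with the lowest unadjusted p among the 10. It measured 0.85, 0.55 and 1.29 FPKM in the controls and 6.68, 10.37 and 3.27 FPKM in the EFTUD2 libraries. Every EFTUD2 library exceeded every control, at 7.45, 11.6 and 3.65 times the control mean, and replicate 3 held 0.315 times the level of replicate 2. The difference was 1.94 on the log2(FPKM + 1) scale (SE 0.36, 95% interval 1.09 to 2.79, unadjusted p = 0.00106, limma adjusted p = 0.27). It was 2.32 without EFTUD2 replicate 3 (limma adjusted p = 0.0255, range over the alternatives 0.0056 to 0.68). STAT3 and SOCS3 shared with VIM and KRT17 the order of the EFTUD2 libraries, replicate 2 highest and replicate 3 lowest, and the part of those markers in both results was not tested. Relative to STAT3 in the same library, SOCS3 was at 0.0162, 0.0113 and 0.0255 in the controls and 0.106, 0.155 and 0.0607 in the EFTUD2 libraries, again without overlap.

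PIM1 (chr6:37170152-37175428), a serine/threonine kinase that promotes survival, had the widest spread. It measured 21.89, 11.66 and 16.89 FPKM in the controls and 28.53, 21.54 and 135.91 FPKM in the EFTUD2 libraries. Replicate 3 was 5.43 times the mean of the other two EFTUD2 libraries, and replicate 2 lay below the highest control. The difference of 1.38 (SE 0.66, 95% interval -0.18 to 2.94, unadjusted p = 0.0746, limma adjusted p = 0.41) dropped to 0.58 without EFTUD2 replicate 3 (limma adjusted p = 0.33). Without EFTUD2 replicate 2 it was 1.88 (unadjusted p = 0.0227). Among the EFTUD2 libraries PIM1 and SOCS3, both targets of STAT3, were in opposite order between replicates 2 and 3, replicate 3 being the lowest for SOCS3 and the highest for PIM1.

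**Figure D3:**
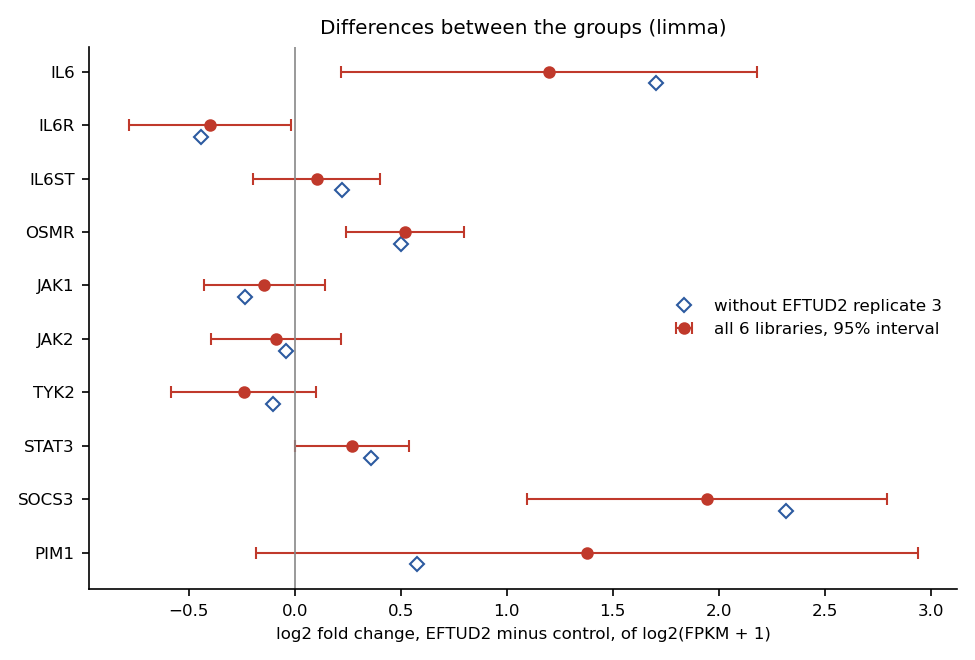
Log2 fold change, EFTUD2 minus control, of log2(FPKM + 1) for the 10 genes (horizontal axis) from limma, with all 6 libraries and 95% interval (filled) and without EFTUD2 replicate 3 (open diamonds). The intervals of IL6, OSMR, STAT3 and SOCS3 lie above 0, that of IL6R lies below 0, and PIM1 moves from 1.38 to 0.58.

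The order of the levels, which FPKM allows because it is scaled to transcript length, changed in places. In the controls STAT3 was highest (50.5 ± 1.89 FPKM), followed by IL6ST, OSMR and JAK1, whose ranges were separate. PIM1, TYK2 and IL6R came next with overlapping ranges, then JAK2, SOCS3 and IL6. In the EFTUD2 group PIM1 (62.0 ± 64.1 FPKM) and STAT3 (61.4 ± 6.80 FPKM) had overlapping ranges at the top, OSMR and IL6ST overlapped next, and SOCS3 (6.77 ± 3.55 FPKM) stood above JAK2, whereas it stood below JAK2 in the controls.

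The other genes of the pathway were read from 7 lists of 79 genes, of which 73 passed the filter, and 0 of the 73 were called at an adjusted p under 0.05 (limma, Benjamini-Hochberg over all genes). At an unadjusted p under 0.05, 14 were higher (4.4% of all genes) and 6 lower (7.9% of all genes). Groups without overlap were seen for 19 higher (7.92% of all genes) and 12 lower genes (19.4% of all genes), so the lower counts were near or below the share over all genes. Of the 7 other ligands of the gp130 family, 0 were higher and 2 lower at an unadjusted p under 0.05, against 4.4% and 7.9% of all genes (median log2 fold change -0.14). IL11, a related cytokine, measured 9.92, 7.99 and 8.11 FPKM in the controls and 3.02, 1.91 and 3.49 FPKM in the EFTUD2 libraries. All EFTUD2 libraries were below all controls, with a difference of -1.36 (SE 0.19, limma adjusted p = 0.21), which was -1.49 without EFTUD2 replicate 3 (limma adjusted p = 0.0277). CLCF1, another ligand of the family, had a difference of -0.66 (unadjusted p = 0.0112) and LIF of -0.28 (unadjusted p = 0.0684, and 0.0223 without EFTUD2 replicate 3). OSM, the ligand of OSMR, was at most 0.03 FPKM in every library.

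Of the 4 other receptor genes tested, 0 reached an unadjusted p under 0.05 and all overlapped between the groups (median -0.06). Among 6 other JAK and STAT genes 1 was higher, against 4.4% of all genes (median 0.03): JAK3, a kinase of lymphoid cytokine receptors, measured 3.09, 2.35 and 3.47 FPKM in the controls and 4.79, 4.63 and 4.17 FPKM in the EFTUD2 libraries (difference 0.49, limma adjusted p = 0.40). Of 15 other negative regulators 0 were higher and 2 lower, against 4.4% and 7.9% of all genes, and 6 lower without overlap, against 19.4% (median -0.13). SOCS2, a relative of SOCS3 that acts mainly on growth hormone signaling, measured 2.52, 2.99 and 2.70 FPKM in the controls and 1.41, 1.46 and 0.82 FPKM in the EFTUD2 libraries (difference -0.76, unadjusted p = 0.00215, limma adjusted p = 0.32). The phosphatase PTPN1 differed by -0.33 (unadjusted p = 0.0279). The SUMO ligases PIAS3 and PIAS4, which restrain STAT proteins, differed by -0.33 and -0.23 with no overlap and an unadjusted p of 0.146 and 0.0814. PIAS3 was at 2.94 FPKM in EFTUD2 replicate 3 and differed by -0.11 without that library. Among 6 shedding and adaptor genes 1 was lower, against 7.9% of all genes (median -0.03): ADAM17, the protease that can release IL-6R from the cell surface, differed by -0.29 (unadjusted p = 0.0459, and 0.0573 without EFTUD2 replicate 3). The adaptors GAB1 and SHC1 differed by -0.18 and 0.13, with no overlap.

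Of 16 other known STAT3 target genes, 3 were higher and 1 lower at an unadjusted p under 0.05, against 4.4% and 7.9% of all genes (median 0.32). The higher ones were transcription factors of stress and acute-phase programs: CEBPD differed by 0.84 (unadjusted p = 0.0173), JUNB by 0.79 (unadjusted p = 0.0105) and CEBPB by 0.57 (unadjusted p = 0.00852). CEBPD measured 28.41, 15.41 and 33.27 FPKM in the controls and 41.91, 48.56 and 43.19 FPKM in the EFTUD2 libraries, which lay together above them. Its difference was 0.52 without control replicate 2, the lowest control. BCL2L1, which encodes the survival protein Bcl-xL, differed in the other direction, at 256.32, 209.20 and 229.53 FPKM in the controls and 170.95, 154.65 and 176.09 FPKM in the EFTUD2 libraries (difference -0.47, unadjusted p = 0.00641).

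The hepatic acute-phase genes had the largest median of the 7 lists, 0.92 against -0.07 over all genes. Of 19 tested, 10 were higher and 0 lower at an unadjusted p under 0.05 (4.4% and 7.9% of all genes), 12 had every EFTUD2 library above every control (7.92% of all genes), and 0 were called after adjustment with limma. The serum amyloid gene SAA1, which passed the filter only through its EFTUD2 values, is among the 10 and the 12. LBP, which carries bacterial lipopolysaccharide, measured 0.10, 0.15 and 0.46 FPKM in the controls and 10.93, 43.98 and 2.15 FPKM in the EFTUD2 libraries (difference 3.28, limma adjusted p = 0.40, and 4.24 with an adjusted p of 0.0332 without EFTUD2 replicate 3). Haptoglobin (HP) measured 87.79, 111.18 and 182.33 FPKM in the controls and 447.74, 689.72 and 301.73 FPKM in the EFTUD2 libraries (difference 1.89, unadjusted p = 0.0014, and 2.19 without EFTUD2 replicate 3). Both were highest in EFTUD2 replicate 2 and lowest in replicate 3, the order seen for SOCS3 and for VIM and KRT17. The 14 hepatocyte markers also had a median above that of all genes (0.29). Of them, 4 were higher and 0 lower without overlap, against 7.92% and 19.4% of all genes. The part of either marker list in the acute-phase values was not tested. SAA2, a serum amyloid, and ITIH3, an inhibitor heavy chain, were highest in replicate 3, at 7.49 and 145.65 FPKM, and differed by 1.91 and 1.58, or by 1.52 and 1.35 without that library. CRP, a classic acute-phase gene, was 0 FPKM in all 6 libraries. As this list and the earlier ones were chosen with results of these data known, their counts are descriptions.

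**Figure D4:**
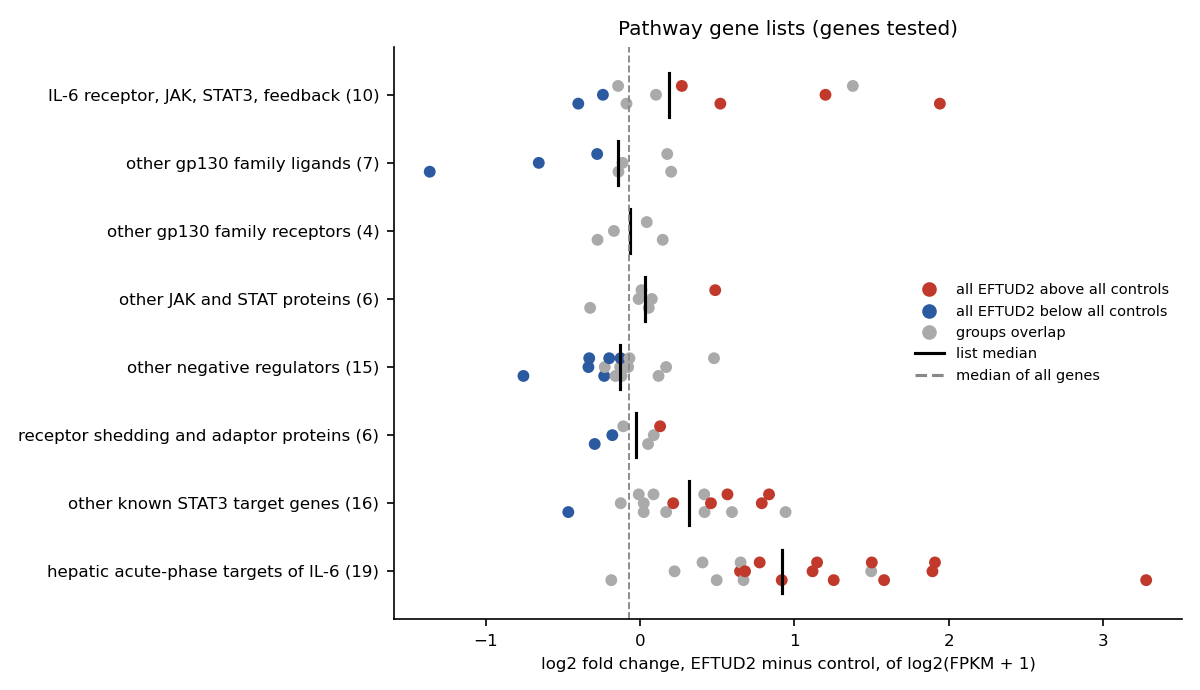
Log2 fold change, EFTUD2 minus control, of log2(FPKM + 1) (horizontal axis) for each tested gene of the 10 and of the 7 pathway lists, colored by whether the library groups overlap, with list medians as bars and the median of all genes as a dashed line. The acute-phase list has its median at 0.92, and the median of the other gp130 family ligands is -0.14, with IL11 at -1.36.

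The genes whose levels followed IL6, SOCS3 and STAT3 most closely over the 6 libraries were sought among the 12555 tested genes averaging 1 FPKM or more, by Pearson's r of log2(FPKM + 1). The likeness is a description over 6 points that share libraries, and both groups enter it. For IL6 the 5 highest were RPL39L and FSTL1 (r = 0.9997), COL12A1 (r = 0.9996), SLC39A8 and LY6K (r = 0.9991). All 5 were at most 0.22 FPKM in the controls and highest in EFTUD2 replicate 2, and they met the minimum of 1 FPKM only through their EFTUD2 values. For SOCS3 they were MTARC2 (r = 0.9961), C1R, a complement protease (r = 0.9941), IFITM3 (r = 0.9924), a transcript without a gene name, and PLA2G16 (r = 0.9914). C1R measured 3.42, 3.47 and 5.90 FPKM in the controls and 17.59, 28.16 and 10.22 FPKM in the EFTUD2 libraries. For STAT3 they were SLC19A3 (r = 0.9951), a transcript without a gene name, HR (r = 0.9905), ANGPTL8 (r = 0.9904) and GNG12 (r = 0.9887). Of these, HR, GNG12 and the transcript without a gene name also met that minimum only through their EFTUD2 values.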

How the data were processed

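RNA-Seq was analysed for 6 libraries of Hep G2 cells, 3 control and 3 EFTUD2, grouped and numbered by their labels. Poly-A RNA from TRIzol extracts was sequenced on a BGISEQ-500 instrument. The authors deposited FPKM per gene and library, rounded to 2 decimals, in 1 table. The submitters' processing notes name HISAT2, Bowtie2, RSEM, DESeq2 and hg38, with no versions or roles. Whether low values step in whole reads was not established from values rounded to 2 decimals, so depth and counting error are unknown. Columns of other samples numbered 0.

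FPKM + 1 was log2-transformed, genes with a mean under 0.1 FPKM were dropped, and the groups were compared with limma 3.58.1 (lmFit, eBayes with trend) in R 4.3.3 over 17222 genes, with Benjamini-Hochberg adjustment. Fold changes on this scale understate those of low genes. Single genes were also compared by exact two-sided permutation. The fit was tested on simulated data. The 13 alternatives were another pseudocount, 2 other filters, 2 other scalings, array weights, a replicate block and leaving out each library.

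Named genes were the 10 members, EFTUD2, up to 4 genes per pathway list with the largest difference among those without overlap, the 5 most like IL6, SOCS3 and STAT3, and the highest marker of each list. Others were named after their values were seen: OSM and CRP for their levels, the genes sharing exon sequence, and COL1A2, THY1, KRT5, TYROBP, PTPRC, CD3E and CD2 as defining markers. S100A2, KRT7, KRT14, KRT16, COL3A1, COL5A1, LUM, CD14, CDH5, VWF, PECAM1 and SAA1 were named for their values. The members and lists were chosen with earlier results of these data known. Gene positions and promoter windows came from RefSeq (GRCh38.p14). Antisense genes and pseudogenes of IL6R and IL6ST outside the table were not analysed here.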

Additional observations from a re-analysis of the deposited data

How the results depend on the processing

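Of 129 fold changes of the 10 genes under the 13 alternatives, 0 reversed, 122 kept their direction and side of the threshold, and 7 passed an adjusted p under 0.05 that they had not passed before. With array weights fitted gene by gene, which lowers the weight of libraries that stand apart, 5 of the 10 genes were called, among 1355 genes in all: IL6 (1.52), IL6R (-0.45), OSMR (0.43), STAT3 (0.34) and SOCS3 (1.99). At an unadjusted p under 0.05 that fit gave 6 higher and 2 lower among the 10 and 21 higher and 11 lower pathway genes, while it put 4731 of all 17222 genes under that threshold, against 2118 without weights. A minimum mean of 1 FPKM, which drops IL6 and gave STAT3 an unadjusted p of 0.0567, left 2 of the 10 higher. That fit put 1672 of 12556 genes under 0.05 unadjusted, in both directions together. Median of ratios scaling left 0 lower at an unadjusted p under 0.05 and 1 lower without overlap, and quantile normalization left 0 and 0. Shares over all genes by direction are not given for these scalings. When 1 library was left out, the genes called among the 10 ranged from 0 to 2, those higher at an unadjusted p under 0.05 from 2 to 5 and those lower from 0 to 2. Over all genes, those under 0.05 unadjusted in both directions together ranged from 1096 of 17293 to 2884 of 17163. Of the 10, only OSMR and SOCS3 were higher at that threshold when a control or EFTUD2 replicate 1 was left out. When any 1 of the 6 libraries was left out, the difference of IL6 ranged from 0.81 to 1.70 and that of SOCS3 from 1.61 to 2.32. Among these fits both were called only without EFTUD2 replicate 3. The cause of these changes was not tested.

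No pairing of the libraries by replicate number was evident. The correlations of deviations from the group means were -0.299, 0.353 and -0.094 for numbers 1, 2 and 3, and not every library correlated best with its own number. With 3 libraries a group and EFTUD2 replicate 3 apart, this check cannot show whether the numbers mark a shared culture or batch. With the replicate block 0 of the 10 genes were called, 4 were higher and 0 lower at an unadjusted p under 0.05. Of all 17222 genes 0 were called, and 2027 were under that unadjusted threshold in both directions together. In that limma fit PIM1 (unadjusted p = 0.0372) took the place of STAT3 (unadjusted p = 0.0864) among the higher genes, and the unadjusted p of IL6R was 0.0503. With 3 libraries a group and no read counts, low values such as those of IL6 in the controls are limited by the 2 decimals of the table.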

Other observations

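PIM1 was not alone in its high value in EFTUD2 replicate 3. Of the other known STAT3 targets, BCL6, a transcriptional repressor, measured 23.35, 9.23 and 15.91 FPKM in the controls and 18.76, 17.46 and 81.00 FPKM in the EFTUD2 libraries. PIM3, a kinase related to PIM1, measured 50.54, 30.02 and 32.85 FPKM in the controls and 35.18, 39.61 and 86.80 FPKM in the EFTUD2 libraries. Replicate 3 was 4.64 times replicate 2 for BCL6, 2.19 times for PIM3 and 6.31 times for PIM1. These genes were chosen after their values were seen.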
